A study of Mus musculus and Bos taurus with 26 samples.

Results

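Aminoacyl-tRNA synthetases are described here across 26 libraries of early mouse and bovine embryos. The members were the genes of the mouse and bovine expression values on a fixed list of symbols of enzymes that join an amino acid to its tRNA. Tarsl2, a related synthetase gene, was not on that list. This gave 37 of 27988 mouse genes, 20 for cytosolic and 17 for mitochondrial enzymes, and 37 of 21577 bovine genes with the same division. All 37 mouse and all 37 bovine members passed the filter on low values, an FPKM (fragments mapped to a gene, scaled by transcript length and by the size of the library) of at least 1 in at least 2 libraries.

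Each synthetase recognises its amino acid and its tRNAs, and the charged tRNA then carries that amino acid to the ribosome, so every synthetase is needed for translation. Cytosolic enzymes serve translation of nuclear genes, while mitochondrial enzymes, encoded in the nucleus and imported, serve translation of the mitochondrial genome. Several cytosolic enzymes sit together with the scaffold proteins Aimp1, Aimp2 and Eef1e1 in the multi-synthetase complex. The 2-cell mouse embryo and the 8/16-cell bovine embryo are the stages at which RNA laid down in the oocyte is broken down and transcription of the embryo's genome starts, which is called zygotic genome activation.

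Mouse embryos injected as zygotes with mutant Hdac1 mRNA or with wild-type (WT) Hdac1 mRNA were sampled at the late 2-cell stage, 36 h after fertilization, and at the early 2-cell stage, 24 h after fertilization. Embryos injected with mutant Hdac2 mRNA, with WT Hdac2 mRNA or with water were sampled at the late 2-cell stage. Further late 2-cell embryos had received mutant Hdac1 mRNA as zygotes and a second injection, of Kdm5b mRNA or of water, into both blastomeres at the early 2-cell stage. Mouse late 2-cell embryos treated from the zygote stage with 50 nM FK228, a drug also called romidepsin that blocks class I histone deacetylases, were set against embryos in KSOM medium with DMSO, and bovine 8/16-cell embryos at 72 h treated with 50 nM FK228 against embryos in BO-IVC medium with DMSO. Each of the 13 groups had 2 libraries. Hdac1 and Hdac2 are histone deacetylases, and Kdm5b removes methyl groups from lysine 4 of histone H3. The labels name neither the mutations nor the number of embryos per library, and gene-level values do not separate injected from endogenous transcripts.

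The injected genes were high in the libraries labelled with them. Hdac1 mRNA was at 4952 and 4612 FPKM in Hdac1 mutant late embryos and 2707 and 2960 FPKM in Hdac1 WT late embryos, against 92.2 and 89.3 FPKM in water-injected embryos, and Hdac2 mRNA was at 2443 and 2292 FPKM in Hdac2 mutant embryos and 1775 and 1462 FPKM in Hdac2 WT embryos, against 26.4 and 19.2 FPKM in water-injected embryos. In early embryos Hdac1 mRNA was at 4007 and 2952 FPKM in Hdac1 mutant and 7253 and 4519 FPKM in Hdac1 WT embryos, and in embryos with mutant Hdac1 mRNA and a second injection of water it was at 917 and 805 FPKM. Mutant and WT embryos thus differed in the level of the injected transcript as well as in its sequence, in opposite directions at the 2 stages, and the effects of these cannot be told apart. Kdm5b mRNA was at 594 and 638 FPKM after its injection, against 61.3 and 74 FPKM with water as second injection. Without that injection it was at 56.6 and 43.7 FPKM in Hdac1 mutant against 116 and 126 FPKM in Hdac1 WT late embryos. With FK228 it was at 27.7 and 30.4 FPKM, against 105 and 138 FPKM with DMSO. The number of genes at 1 FPKM or more per library was 10704 to 14554 for the mouse and 11598 to 12141 for the bovine embryos, and relative depth ran from 0.663 to 1.31 of the median library in mouse. All 10 oocyte and early embryo markers reached 1 FPKM in every mouse group. A list of 8 blood markers summed to 112 and 98.8 FPKM in Hdac1 mutant late embryos against 5.42 and 2.62 FPKM in Hdac1 WT embryos, to 150 and 149 FPKM in Hdac2 mutant embryos against 7.01 and 5 FPKM in Hdac2 WT embryos, and to 183 and 164 FPKM after FK228 against 9.32 and 14.4 FPKM with DMSO. The beta-globin genes Hbb-bs and Hbb-bt were at 0 in both Hdac1 and both Hdac2 late groups, and the part of the blood markers in the results was not tested.

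A RefSeq promoter window on GRCm38.p6, 250 bases before to 50 bases after the start, was matched for 27 of the 37 mouse members, and Cars, Hars, Hars2, Lars, Nars, Pars2, Rars, Vars and Wars were among those without one. The windows of 4 members the results turn on are shown 5′ to 3′ on the strand of the gene. They are Eprs, the member with the lowest fold change in the late Hdac1, Hdac2 and FK228 comparisons, at chr1:185362794-185363093, plus strand, and Sars, the member called higher in all of them, at chr3:108445210-108445509, minus strand. Aars, at chr8:111033592-111033891, plus strand, and Yars, at chr4:129189653-129189952, plus strand, carry the letters of the binding element that C/EBP and ATF proteins, Atf4 among them, share. Capitals mark the matches to the motifs searched on both strands, which were CACGTG (the E-box read by Myc), TGATGNAA (C/EBP-ATF), CCGGAAG (ETS factors) and CATGCGC (NRF1, a part of its site). The Eprs window holds none of these letters. For Aars, Sars and Yars the RefSeq start differs from the one GENCODE draws. The Aars window starts inside the GENCODE gene, which begins at 111033144. The Sars window lies wholly before the GENCODE start at 108445209, and the GENCODE start of Yars is at 129189760.
Eprs promoter: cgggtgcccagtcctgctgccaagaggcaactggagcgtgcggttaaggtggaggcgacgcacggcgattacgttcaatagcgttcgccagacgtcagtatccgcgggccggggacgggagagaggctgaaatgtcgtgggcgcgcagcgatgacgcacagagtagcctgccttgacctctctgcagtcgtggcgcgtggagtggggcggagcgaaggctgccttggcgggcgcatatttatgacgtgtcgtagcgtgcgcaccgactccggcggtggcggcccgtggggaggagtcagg
Sars promoter: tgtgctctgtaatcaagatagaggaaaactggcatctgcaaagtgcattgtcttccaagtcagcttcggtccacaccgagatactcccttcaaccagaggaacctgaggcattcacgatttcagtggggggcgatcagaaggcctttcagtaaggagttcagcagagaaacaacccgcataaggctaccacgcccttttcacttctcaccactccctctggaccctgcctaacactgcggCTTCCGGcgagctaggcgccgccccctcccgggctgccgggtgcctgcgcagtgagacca
Aars promoter: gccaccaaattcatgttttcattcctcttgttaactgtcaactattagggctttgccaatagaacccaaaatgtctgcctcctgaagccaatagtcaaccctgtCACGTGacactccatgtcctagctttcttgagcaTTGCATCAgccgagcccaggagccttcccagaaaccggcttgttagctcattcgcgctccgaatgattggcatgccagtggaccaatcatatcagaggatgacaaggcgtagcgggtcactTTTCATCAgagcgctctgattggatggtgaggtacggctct
Yars promoter: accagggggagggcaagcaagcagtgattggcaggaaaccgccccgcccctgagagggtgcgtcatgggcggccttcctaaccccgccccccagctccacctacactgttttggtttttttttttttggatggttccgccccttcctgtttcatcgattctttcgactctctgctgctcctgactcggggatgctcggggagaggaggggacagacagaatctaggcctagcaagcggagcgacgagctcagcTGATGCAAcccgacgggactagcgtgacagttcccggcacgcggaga

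The C/EBP-ATF letters were found in 5 of the 27 member windows (18.5%), those of Aars, Gars, Iars, Tars and Yars, against 2.34% of the windows of 11988 tested genes and 4.06% of all 27025 windows. The Aars window held them at 2 places. The E-box was in 5 of 27 (18.5%), those of Aars, Ears2, Farsb, Iars and Tars, against 9.81% of tested genes' windows. The ETS letters were in 9 of 27 (33.3%) against 16.1%, and the NRF1 letters in 3 of 27 (11.1%) against 6.51%. No motif overlapped another in the windows shown. These are matches of letters and were not tested as binding sites.

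In late 2-cell embryos without mutant mRNA or FK228, cytosolic synthetase mRNAs had a higher median level than mitochondrial ones. Over the 8 late libraries of Hdac1 WT, Hdac2 WT, water and DMSO embryos, of which the WT embryos carried injected deacetylase mRNA, the median of the members' median FPKM was 14.4 for the 20 cytosolic and 3.71 for the 17 mitochondrial genes. Kars, the lysyl enzyme that serves both compartments, had the highest median at 94.1 FPKM (lowest library 78.8, highest 130), followed by Rars, the arginyl enzyme, at 62.6 FPKM (47.9 to 76.0) and Iars, the isoleucyl enzyme, at 61.2 FPKM (45.7 to 70.2). The ranges of Rars and Iars overlapped across these libraries. Lars2, the mitochondrial leucyl enzyme, was the exception among mitochondrial genes, with a median of 51.2 FPKM (29.5 to 72.6), and Lars, its cytosolic counterpart, had a median of only 0.561 FPKM (0.0783 to 1.01). Qars, the glutaminyl enzyme, could not be placed: it was at 78.6 and 4.26 FPKM in the Hdac1 WT late libraries, 1.69e-17 and 103 in the water libraries and 1.02e-18 and 1.21e-17 in the DMSO libraries. Values that small may be failed estimates, so Qars is kept in the counts but no fold change of it is used as a result.

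**Figure D1:**
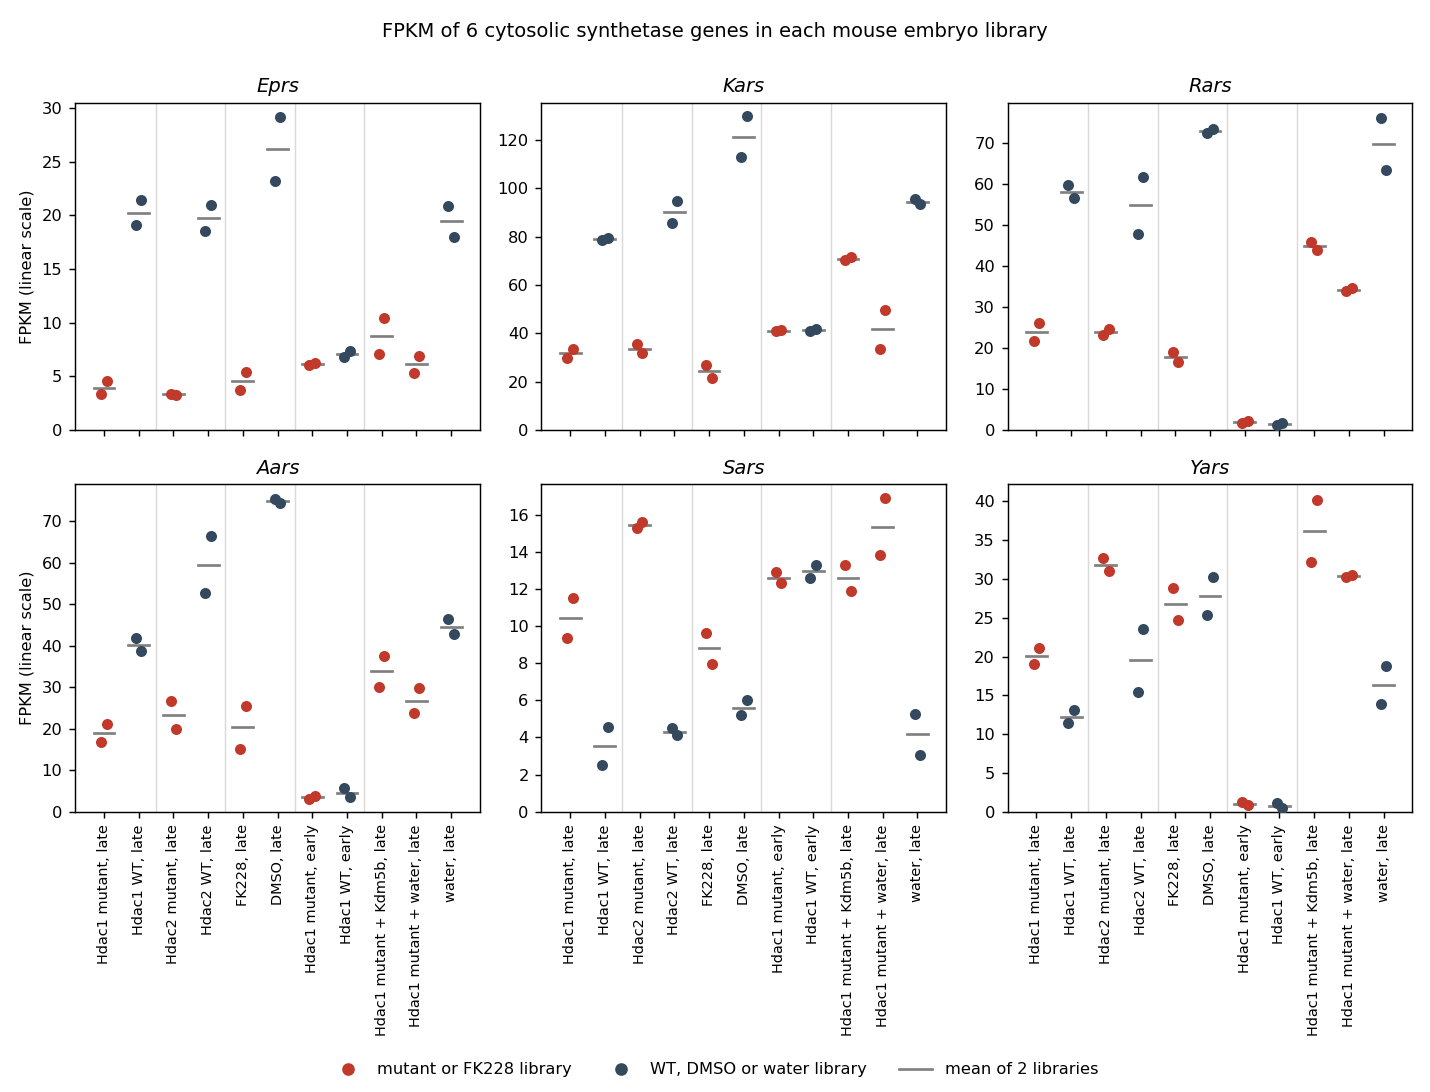
FPKM (linear axes from 0) of 6 cytosolic synthetase genes in each of the 22 mouse libraries, by group, with a grey bar at the mean of the 2 libraries. Eprs, Kars, Rars and Aars are lower in mutant and FK228 late embryos than in their controls, Sars is higher in them, and in early embryos mutant and WT libraries lie close together.

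Synthetase mRNAs moved in both directions between the early and the late 2-cell stage, with more calls upward. In Hdac1 WT embryos, 18 of 37 members were higher at 36 h and 8 were lower, against 28.8% of all 17336 tested genes higher and 28.1% lower. A gene was called where its adjusted p (limma on log2(FPKM + 1), 2-sided, Benjamini-Hochberg over all tested genes) was under 0.05. The labels do not say that the 2 libraries of a group came from separate cultures, so p-values measure the spread between libraries, which may be technical. The members' median log2 fold change was 0.82, and that of all tested genes was 0.00. Of the 8 enzymes of the multi-synthetase complex, 6 rose and 1 fell. Of the 12 cytosolic enzymes outside it 4 rose and 5 fell, and of the 17 mitochondrial ones 8 rose and 2 fell.

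Rars, a protein-coding gene on the minus strand of GRCm38 chromosome 11 from 35808381 to 35834506, was at 59.7 and 56.5 FPKM in late and 1.23 and 1.75 FPKM in early Hdac1 WT embryos. The stages did not overlap, and the log2 fold change was 4.58 ± 0.16 (SE) with an adjusted p of 5.01e-12 in limma. Yars, the tyrosyl enzyme, was at 11.4 and 13.1 FPKM in late and 1.06 and 0.448 FPKM in early embryos (2.93 ± 0.22, adjusted p = 1.49e-08, limma). Aars, the alanyl enzyme, was at 41.8 and 38.6 FPKM in late against 5.70 and 3.53 FPKM in early embryos (2.90 ± 0.24), Hars, the histidyl enzyme, at 13.7 and 17.1 against 1.08 and 1.48 FPKM (2.85 ± 0.20), and Mars1, the methionyl enzyme, at 12.5 and 11.3 against 1.30 and 0.569 FPKM (2.76 ± 0.21). Among the mitochondrial enzymes Cars2 and Hars2, for cysteine and histidine, rose by 2.25 ± 0.19 and 2.01 ± 0.39 on the log2 scale. All fold changes are on the log2(FPKM + 1) scale, which understates those of low genes.

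The phenylalanyl enzymes fell between the stages. Farsb, the beta subunit of the cytosolic enzyme, was at 15.5 and 13.5 FPKM in late and 86.1 and 88.0 FPKM in early Hdac1 WT embryos (log2 fold change −2.50 ± 0.19, adjusted p = 2.03e-08, limma). Its partner subunit Farsa was at 9.22 and 10.7 FPKM in late and 14.7 in each early library (−0.52 ± 0.18), so that the ratio of Farsb to Farsa FPKM was 1.68 and 1.26 in late and 5.86 and 5.99 in early embryos. Fars2, the single-chain mitochondrial phenylalanyl enzyme, was at 4.44 and 2.81 FPKM in late and 28.1 and 27.1 FPKM in early embryos (−2.65 ± 0.23, adjusted p = 8.83e-08, limma). Lars was at 0.330 and 0.659 FPKM in late and 6.25 and 7.33 FPKM in early embryos (−2.39 ± 0.26), Sars, the seryl enzyme, at 2.52 and 4.56 against 12.6 and 13.3 FPKM (−1.66 ± 0.22), and Gars, the glycyl enzyme of both compartments, at 10.7 and 14.6 against 28.7 and 28.4 FPKM (−1.13 ± 0.16). Of the 26 calls, 20 were made with any library left out; those of Cars, Farsa, Wars, Aars2 and Lars2 were among those lost without at least 1 library, and Farsa had an adjusted p of 0.133 without late replicate 1.

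Mutant Hdac1 mRNA made no called difference to any member at the early stage. Of 37 members, 0 were higher and 0 lower in Hdac1 mutant early embryos against Hdac1 WT early embryos in the limma fit, with 3 members at an unadjusted p under 0.05. Of all tested genes, 0.231% were called higher and 0.329% lower (41.2% of these calls were higher, and 51.7% after quantile normalization), and 1057 had an unadjusted p under 0.05. Kars was at 41.1 and 41.3 FPKM in mutant and 41.2 and 41.8 FPKM in WT early embryos, Eprs at 6.11 and 6.28 against 6.84 and 7.39, and Sars at 12.9 and 12.3 against 12.6 and 13.3. The median log2 fold change of the members was −0.08, with a range from −0.60 to 1.05.

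At the late 2-cell stage, 13 of 37 members were lower and 3 higher in Hdac1 mutant embryos than in Hdac1 WT embryos. Of all tested genes 21.6% were lower and 30.5% higher. The members' median log2 fold change was −0.39, and that of all tested genes 0.17. Quantile normalization moved the median of all tested genes to −0.06, the share of calls that were higher to 48.0%, against 58.5% as deposited, and the members to 18 lower and 3 higher. The fall covered 5 of 8 enzymes of the complex with 0 higher, 3 of 12 other cytosolic enzymes with 3 higher, and 5 of 17 mitochondrial enzymes with 0 higher. FPKM are scaled to the size of each library, so a lower value is a fall relative to the library's other transcripts. Amounts of RNA per cell or embryo were not measured.

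Eprs (protein coding, plus strand of chromosome 1 from 185363044 to 185428360), a fused enzyme for glutamate and proline and a member of the complex, changed most. It was at 3.33 and 4.56 FPKM in Hdac1 mutant and 19.1 and 21.4 FPKM in Hdac1 WT late embryos, without overlap (log2 fold change −2.11 ± 0.21, adjusted p = 6.02e-07, limma). Dars, the aspartyl enzyme of the complex, was at 1.96 and 3.61 FPKM in mutant and 11 and 14.8 FPKM in WT embryos (−1.90 ± 0.23, adjusted p = 4.90e-06, limma). Ears2, the mitochondrial glutamyl enzyme, was at 0.530 and 1.04 FPKM in mutant and 5.27 and 3.92 FPKM in WT embryos (−1.65 ± 0.23, adjusted p = 1.67e-05, limma). Yars2, the mitochondrial tyrosyl enzyme, fell as well, at 1.66 and 1.42 against 5.85 and 4.82 FPKM (−1.31 ± 0.35, adjusted p = 0.00543, limma).

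Kars, Rars and Aars, among the most abundant members, followed with −1.29, −1.25 and −1.05 on the log2 scale. Aars shares 1326 exonic bases, 14.3% of its own, with Exosc6 on the same strand. Exosc6 is absent from the mouse values, so in every comparison the Aars values may hold reads of Exosc6. Kars, on the minus strand of chromosome 8 from 111993443 to 112011323, was at 30.0 and 33.6 FPKM in mutant and 78.8 and 79.4 FPKM in WT embryos, and its annotated pseudogene Kars-ps1 reached at most 0.0616 FPKM in any mouse library. Farsa, Tars2, Rars2, Iars and Gars, at −0.98 to −0.43, were also called lower.

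Sars, Vars and Yars were higher in Hdac1 mutant late embryos. Sars, protein coding and on the minus strand of chromosome 3 from 108424865 to 108445209, was at 9.34 and 11.5 FPKM in mutant and 2.52 and 4.56 FPKM in WT embryos (1.37 ± 0.22, adjusted p = 0.000102, limma). Yars, protein coding and on the plus strand of chromosome 4 from 129189760 to 129219607, was at 19.1 and 21.1 FPKM in mutant and 11.4 and 13.1 FPKM in WT embryos (0.67 ± 0.22, adjusted p = 0.0182, limma). Vars, the valyl enzyme, was at 5.66 and 2.73 FPKM in mutant and 2.08 and 0.253 FPKM in WT embryos (1.34 ± 0.45, adjusted p = 0.0194, limma). Without mutant replicate 2 the adjusted p of Yars was 0.0879, and without mutant replicate 1 that of Vars was 0.173. Of the 16 calls, 11 were made with any library left out, those of Gars, Iars, Vars, Yars and Rars2 being the others.

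Whether the mutant effect changed with stage was itself tested, as the Hdac1 mutant effect at the late stage minus that at the early stage. It was negative and called for 9 of 37 members and positive and called for 1, against 15.2% and 21.2% of all tested genes. The lower ones were Eprs at −1.94 ± 0.29, Dars at −1.84 ± 0.32, Rars at −1.48 ± 0.22, Yars2, Ears2, Kars, Farsa, Tars2 and Cars2, and the higher one was Sars at 1.40 ± 0.32. Seen along the stages, Rars was at 21.8 and 26.1 FPKM in late and 1.69 and 2.12 FPKM in early Hdac1 mutant embryos, still a log2 fold change of 3.10 ± 0.16, while Eprs was at 3.33 and 4.56 FPKM in late and 6.11 and 6.28 FPKM in early mutant embryos (−0.55 ± 0.21, adjusted p = 0.0278, limma). That Eprs call was lost without late mutant replicate 1 (adjusted p = 0.2). In mutant embryos 12 of 37 members were higher and 10 lower at the late than at the early stage, against 40.6% and 25.8% of all tested genes (61.1% of these calls were higher, and 47.6% after quantile normalization). One of the higher calls was that of Qars, which was lost without at least 1 library. Kars was not called between the stages in mutant embryos. Sars was at 9.34 and 11.5 FPKM in late and 12.9 and 12.3 FPKM in early mutant embryos, where in WT embryos it had 2.52 and 4.56 FPKM late and 12.6 and 13.3 FPKM early.

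Mutant Hdac2 mRNA was compared in libraries of its own. Against Hdac2 WT late embryos, 15 of 37 members were lower and 4 higher, with 22.2% and 30.8% of all tested genes, and the members' median was −0.28 where that of all tested genes was 0.14. Lower were 6 of 8 enzymes of the complex, 4 of 12 other cytosolic enzymes and 5 of 17 mitochondrial enzymes. Eprs was at 3.38 and 3.30 FPKM in Hdac2 mutant and 18.6 and 21.0 FPKM in Hdac2 WT embryos (−2.26 ± 0.21, adjusted p = 2.68e-07, limma). Ears2 was at 0.752 and 0.393 against 4.93 and 5.96 FPKM (−2.04 ± 0.23, adjusted p = 1.82e-06, limma), and Sars2, the mitochondrial seryl enzyme, at 0.929 and 0.363 against 3.70 and 5.61 FPKM (−1.78 ± 0.35, adjusted p = 0.000484, limma). Dars at −1.44 ± 0.23 and Kars at −1.40 ± 0.16 came next.

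Sars was at 15.3 and 15.6 FPKM in Hdac2 mutant and 4.48 and 4.14 FPKM in Hdac2 WT embryos (1.63 ± 0.22, adjusted p = 1.70e-05, limma), opposite to Sars2. Cars, the cysteinyl enzyme, was at 8.72 and 12.0 FPKM in mutant and 3.87 and 4.85 FPKM in WT embryos (1.08 ± 0.31, adjusted p = 0.00843, limma). Yars and Nars, the asparaginyl enzyme, were higher by 0.71 ± 0.22 and 0.38 ± 0.12. The calls of Cars, Yars and Nars, with those of Farsb, Mars1 and Yars2, were among those lost without at least 1 library, with adjusted p-values of 0.0861, 0.0649 and 0.0732 for Cars without mutant replicate 2 and for Yars and Nars without mutant replicate 1. The difference between the Hdac1 and the Hdac2 mutant effects was called for 0 of 37 members in either direction (limma), with 2 at an unadjusted p under 0.05, and was called positive for 0.0404% and negative for 0.0635% of all tested genes. Its estimates for the members ran from −1.10 to 1.04 on the log2 scale, so differences of that size were not resolved.

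**Figure D2:**
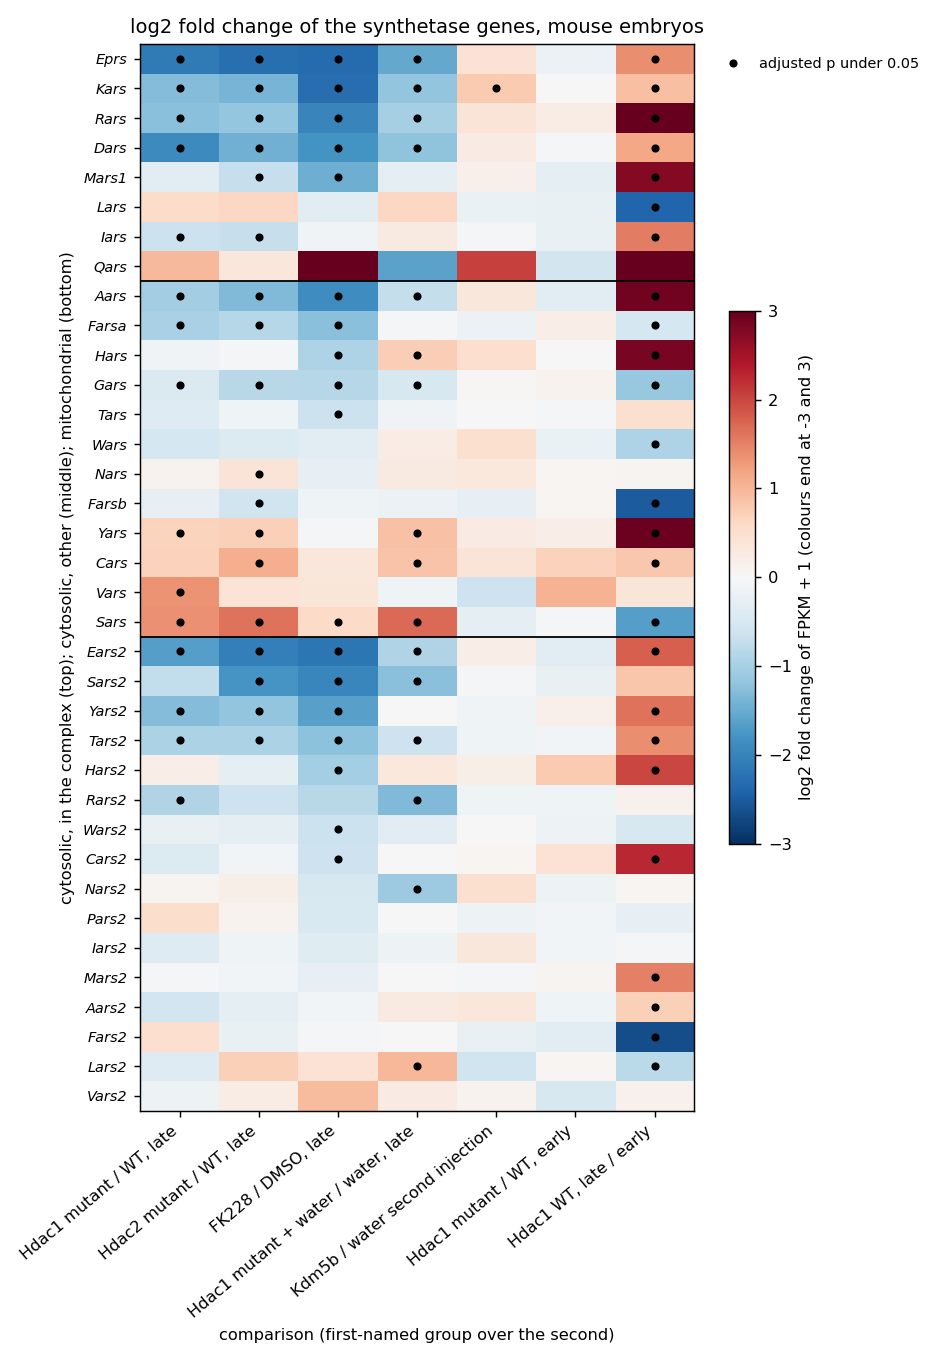
Log2 fold change of FPKM + 1 for the mouse members (rows, in 3 blocks by role, 1 mitochondrial gene not drawn) in 7 comparisons (columns), first-named group over the second, with black dots at an adjusted p under 0.05. Eprs, Kars, Rars and Dars are blue with dots in the first 4 columns, Sars is red with dots there, and the early mutant column holds no dot; Qars is drawn but its values are unreliable.

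FK228 lowered members of every role. Against DMSO, 17 of 37 members were lower and 1 higher in FK228-treated late 2-cell embryos, with 26.3% and 31.0% of all tested genes, and the members' median was −0.62 where that of all tested genes was 0.15. The lower calls covered 5 of 8 enzymes of the complex, 5 of 12 other cytosolic enzymes and 7 of 17 mitochondrial enzymes. Kars was at 27.0 and 21.6 FPKM with FK228 and 113 and 130 FPKM with DMSO (−2.28 ± 0.16, adjusted p = 1.15e-08, limma). Eprs was at 3.71 and 5.43 FPKM with FK228 and 23.2 and 29.2 FPKM with DMSO (−2.30 ± 0.21, adjusted p = 1.60e-07, limma), and Rars at 19 and 16.7 FPKM with FK228 and 72.5 and 73.3 FPKM with DMSO (−1.97 ± 0.16, adjusted p = 4.03e-08, limma). None of these overlapped.

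In mitochondrial enzymes, Ears2 was at 0.408 and 0.294 FPKM with FK228 and 4.77 and 5.36 FPKM with DMSO (−2.17 ± 0.23, adjusted p = 7.55e-07, limma), and Sars2 at 0.370 and 0.435 FPKM with FK228 and 4.02 and 4.96 FPKM with DMSO (−1.96 ± 0.35, adjusted p = 0.000179, limma). Mars1, Hars and Tars, for methionine, histidine and threonine, were lower, at −1.47 ± 0.21, −0.92 ± 0.20 and −0.64 ± 0.24. The lower calls of Tars, Cars2, Hars2 and Wars2 were lost without at least 1 library. Sars was the only higher member, at 9.62 and 7.97 FPKM with FK228 and 5.20 and 6.01 FPKM with DMSO (0.57 ± 0.22, adjusted p = 0.042, limma). Its call was lost without any of the 4 libraries, with adjusted p-values from 0.054 to 0.207. Yars was at 28.9 and 24.7 FPKM with FK228 and 25.4 and 30.2 FPKM with DMSO and was not called. The Hdac1 mutant effect minus the FK228 effect was called positive for 2 of 37 members, Mars1 at 1.14 ± 0.30 and Kars at 0.99 ± 0.22 (adjusted p = 0.0337 and 0.0179, limma), and negative for 0, against 4.76% and 2.20% of all tested genes, with 11 members at an unadjusted p under 0.05. Of these calls over all genes 68.4% were positive, 49.4% after median-ratio scaling and 52.9% after quantile normalization. Kars lost its call without FK228 replicate 2 or DMSO replicate 2 (adjusted p = 0.0793 and 0.0779), and Mars1 without all but 1 of the 8 libraries, with adjusted p-values from 0.0548 to 0.106.

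The Hdac1, Hdac2 and FK228 comparisons share no libraries. Lower in all 3 were 10 of 37 members, Aars, Dars, Eprs, Farsa, Gars, Kars, Rars, Ears2, Tars2 and Yars2, against 17.4% of all tested genes. Higher in all 3 was Sars alone, against 21.1% of all tested genes. Called in none were 11 members, among them Lars, Wars, Fars2, Lars2 and Vars2, against 28.9% of all tested genes. The mRNAs of the 2 subunits of the cytosolic phenylalanyl enzyme differed in their calls. Farsa was lower in all 3, while Farsb was called only in Hdac2 mutant embryos, at −0.59 ± 0.19. That call was lost without mutant replicate 2 (−0.30). The ratio of Farsb to Farsa was 2.82 and 2.54 in Hdac1 mutant against 1.68 and 1.26 in Hdac1 WT late embryos, and 1.67 and 1.75 with FK228 against 0.646 and 0.813 with DMSO. In the Hdac2 comparison the libraries overlapped, at 1.94 and 1.13 in mutant against 1.38 and 1.03 in WT embryos. They also overlapped between embryos with mutant Hdac1 mRNA and a second injection of water (1.13 and 1.29) and water-injected embryos (1.55 and 1.18).

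A separate pair of groups set the mutant against water. Embryos with mutant Hdac1 mRNA and a second injection of water were set against embryos injected once with water, so the number of injections differed too. In them 11 of 37 members were lower and 5 higher, against 18.1% and 34.5% of all tested genes, with a members' median of −0.11 and an all-gene median of 0.25. Of all calls 65.5% were higher, and 47.7% after quantile normalization. Eprs was at 5.34 and 6.91 FPKM in the doubly injected mutant embryos and 20.9 and 18.0 FPKM in water embryos (−1.53 ± 0.21, adjusted p = 1.72e-05, limma), and Sars at 13.8 and 16.9 against 5.27 and 3.06 FPKM (1.69 ± 0.22, adjusted p = 1.42e-05, limma). Kars fell by 1.19 ± 0.16 on the log2 scale. Hars, not called in the other mutant comparisons, was at 27.8 and 32.7 FPKM in the doubly injected mutant embryos and 20.8 and 15.1 FPKM in water embryos (0.73 ± 0.20). Over all 4 comparisons, which share no libraries, 8 members were lower each time (Aars, Dars, Eprs, Gars, Kars, Rars, Ears2 and Tars2; 14.4% of all tested genes were) and Sars was higher each time (19.9% of all tested genes were). Only Dars, Eprs, Kars, Rars, Sars and Ears2 among its 16 calls were made with any library left out, and without mutant replicate 1 the count of calls was 10.

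Kdm5b mRNA after mutant Hdac1 changed little among the members. Kars was higher, at 70.3 and 71.5 FPKM after Kdm5b and 33.4 and 49.9 FPKM after water as second injection (0.78 ± 0.16, adjusted p = 0.0359, limma), and 0 members were lower, against 0.415% and 0.629% of all tested genes (39.8% of these calls were higher, and 23.8% after median-ratio scaling). At an unadjusted p under 0.05 there were 5 members. The Kars call was lost without either Kdm5b library or without water replicate 1 (adjusted p = 0.157, 0.203 and 0.333), with a pseudocount of 0.1, after quantile normalization and with only these 2 groups fitted. Rars was at 45.9 and 43.9 FPKM after Kdm5b and 33.8 and 34.7 FPKM after water, and Eprs at 7.09 and 10.4 against 5.34 and 6.91 FPKM, neither called.

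WT mRNA itself moved few members. In Hdac1 WT late embryos against water-injected ones 0 of 37 members were higher and 1 lower (limma), with 7 at an unadjusted p under 0.05 and 0.352% and 1.83% of all tested genes called (16.1% of calls higher, against 28.7% after median-ratio scaling and 34.0% after quantile normalization). The lower one was Fars2, at 4.44 and 2.81 FPKM in Hdac1 WT and 14.8 and 9.03 FPKM in water embryos (−1.47 ± 0.23, adjusted p = 0.00631, limma), a call lost with only these 2 groups fitted (adjusted p = 0.475). In Hdac2 WT embryos against water-injected ones 0 members were called in either direction (limma), with 7 at an unadjusted p under 0.05 and 6.59% and 2.86% of all tested genes higher and lower (69.8% of calls higher, and 57.2% after median-ratio scaling). Fars2 was at 12.2 and 10.6 FPKM in Hdac2 WT embryos.

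Seen by compartment, the summed FPKM of the cytosolic genes without Qars was 248 and 258 in Hdac1 mutant late and 409 and 390 in Hdac1 WT late embryos. It was 304 and 281 in Hdac2 mutant and 426 and 489 in Hdac2 WT embryos, and 268 and 264 with FK228 and 539 and 583 with DMSO. In none of these did the libraries overlap. At the early stage it was 303 and 274 in mutant and 285 and 283 in WT embryos, where they did. The mitochondrial sum without Lars2 was 35.3 and 37.2 FPKM in Hdac1 mutant and 57.3 and 49.8 in Hdac1 WT late embryos, 43.9 and 47.3 in Hdac2 mutant and 60.0 and 77.2 in Hdac2 WT embryos, and 42.2 and 44.9 with FK228 and 72.2 and 71.6 with DMSO. At the early stage it was 38.6 and 36.8 FPKM in mutant and 45.6 and 45.0 FPKM in WT embryos, so mutant libraries were the lower ones there too. With Lars2, which alone holds a large part of the mitochondrial sum, the picture differs: the sum was 73.3 and 115 FPKM in Hdac1 mutant and 128 and 122 in Hdac1 WT late embryos, 125 and 124 in Hdac2 mutant and 109 and 123 in Hdac2 WT embryos, and 98.3 and 118 with FK228 and 114 and 125 with DMSO. Hdac2 mutant libraries were then the higher ones, and FK228 and DMSO libraries overlapped. In the early embryos, Farsb alone was at 99.3 and 82.7 FPKM in mutant and 86.1 and 88.0 FPKM in WT libraries of the cytosolic sum. The FPKM summed over all genes was 279913 and 261955 in Hdac1 mutant and 331776 and 312735 in Hdac1 WT late embryos. In Hdac2 mutant and Hdac2 WT embryos it was 290695 and 291303 against 360588 and 358022. With FK228 and DMSO it was 295030 and 282624 against 372885 and 375640. At the early stage mutant (375724 and 365419) and WT libraries (381525 and 367901) overlapped. The members' sums were not scaled by these totals. The sums are a description without a test.

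**Figure D3:**
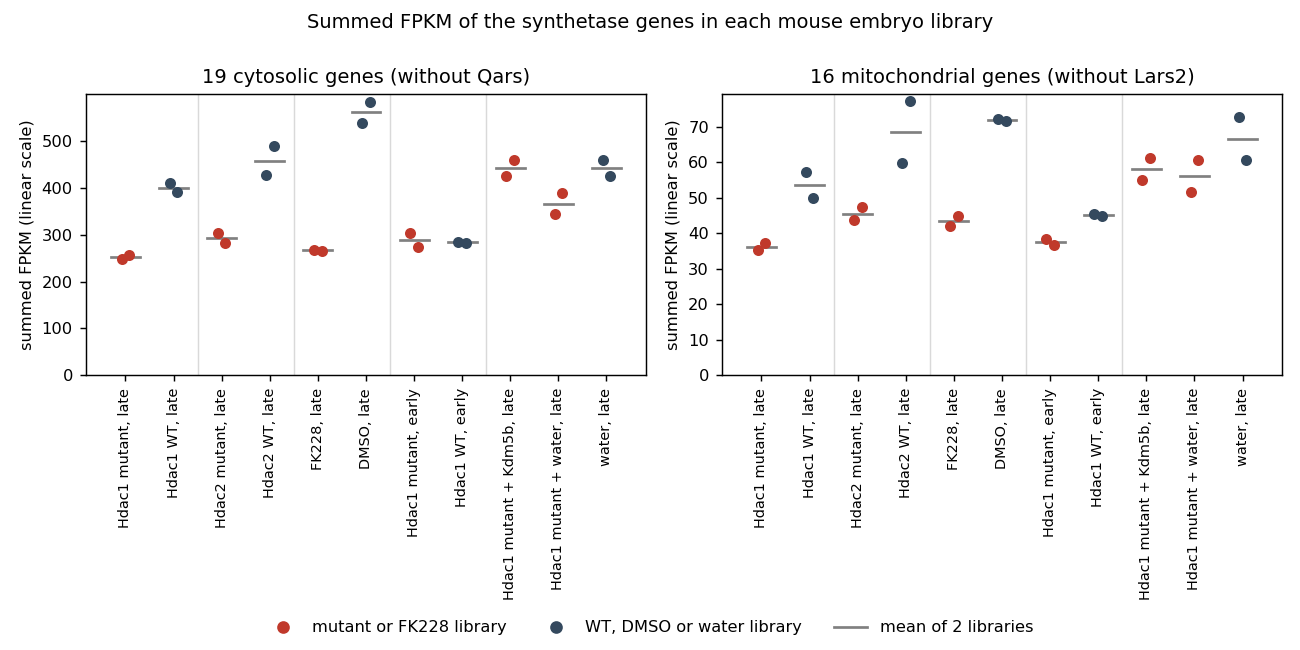
Summed FPKM (linear axes from 0) of 19 cytosolic members without Qars (left) and 16 mitochondrial members without Lars2 (right) in each mouse library, by group, with a grey bar at the mean of 2 libraries. Late mutant and FK228 libraries lie below their WT and DMSO libraries in both panels, which for the mitochondrial genes does not hold with Lars2 added in the Hdac2 and FK228 comparisons, and the cytosolic sums of early mutant and WT libraries overlap. The FPKM summed over all genes, not drawn, was also lower in these late mutant and FK228 libraries.

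The genes for the cytosolic and the mitochondrial enzyme of the same amino acid make 17 pairs here, Eprs standing in 2 of them, for glutamate with Ears2 and for proline with Pars2. Both members were lower in 3 pairs in the Hdac1 mutant comparison, in 2 in the Hdac2 mutant comparison and in 3 after FK228, and the glutamate pair was among them each time. Calls were opposite for Yars and Yars2 in both mutant comparisons, and for Sars and Sars2 in Hdac2 mutant embryos and after FK228. Of these, only Sars and Sars2 in Hdac2 mutant embryos kept both calls with any library left out. No share for pairs of other genes was taken. Between the stages, both genes rose in 7 pairs, both fell in 2 and 0 were opposite.

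The calls in perturbed embryos were set beside the stage calls. Of the 18 members higher at the late stage in Hdac1 WT embryos, 12 were lower after FK228 (66.7%), and 62.8% of all 4985 genes higher at the late stage were. In Hdac2 mutant embryos 11 of the 18 were lower (61.1%), against 53.1% of such genes, and in doubly injected mutant embryos 7 (38.9%), against 44.6%. Of the 8 members lower at the late stage, Farsa and Gars were lower after FK228 (25.0%, against 9.64% of such genes), and Sars was higher. In Hdac2 mutant embryos 3 of these 8 were lower (37.5%, against 10.6%), and in doubly injected mutant embryos 1 was (12.5%, against 8.22%). Of the 11 members with no stage call, 3 were lower after FK228 (27.3%, against 12.8% of such genes), 1 in Hdac2 mutant embryos (9.09%, against 9.08%) and 3 in doubly injected mutant embryos (27.3%, against 7.00%). The stage comparison shares no libraries with these 3 comparisons.

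**Figure D4:**
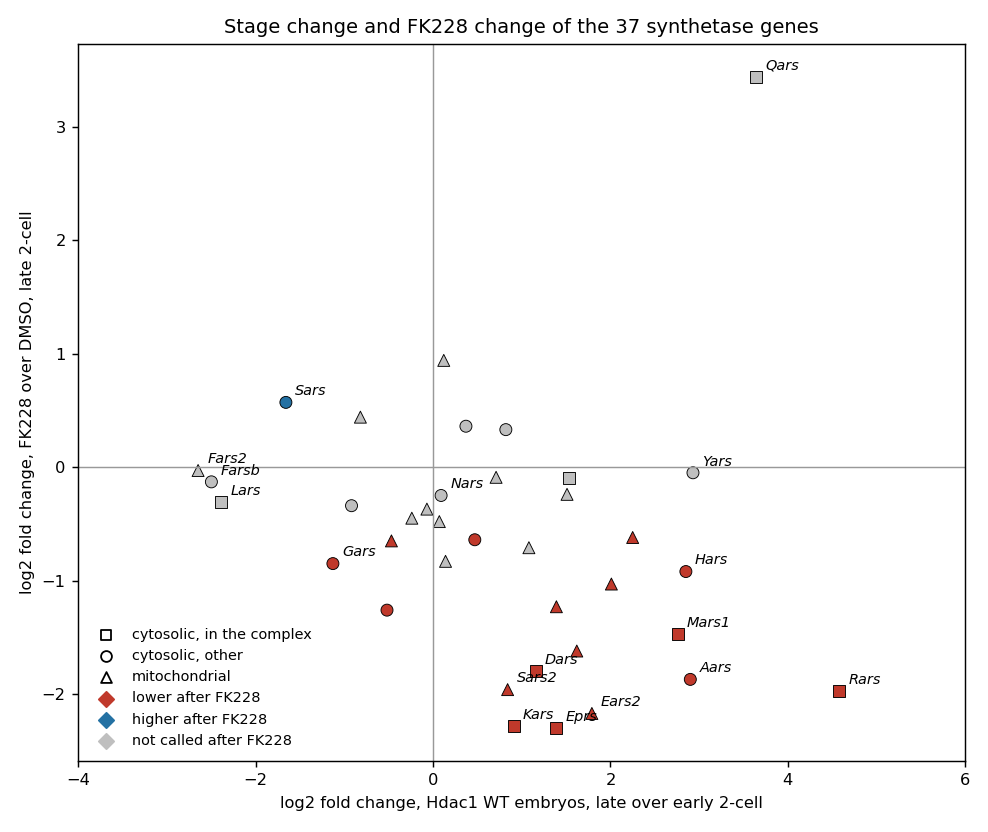
Log2 fold change of the 37 mouse members between late and early Hdac1 WT embryos (x axis) and between FK228 and DMSO late embryos (y axis), by role (marker) and FK228 call (colour). Red points, lower after FK228, lie mostly at the right, with Rars at 4.58 and −1.97; Sars, Farsb and Lars lie at the left near or above 0, and Qars is unreliable.

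Genes of the pathway around the synthetases were read from lists chosen for this tissue. The scaffold proteins of the complex fell with its enzymes: 3 of 3 were lower in Hdac1 mutant embryos and after FK228, and 2 of 3 in Hdac2 mutant embryos. Aimp2 was at 16.5 and 24.6 FPKM in Hdac1 mutant and 66.3 and 71.7 FPKM in Hdac1 WT late embryos (−1.72 ± 0.24), and at 27.3 and 34.2 FPKM with FK228 and 114 and 108 FPKM with DMSO (−1.83 ± 0.24). Eef1e1 was lower, at −1.54 ± 0.28, −1.78 ± 0.28 and −1.91 ± 0.28 in the Hdac1, Hdac2 and FK228 comparisons. Of 8 tested genes related to the synthetases, 2 were higher in each comparison and 2, 1 and 1 lower in the Hdac1, Hdac2 and FK228 comparisons. The shares of all tested genes there were 30.5%, 30.8% and 31.0% higher and 21.6%, 22.2% and 26.3% lower. Lower were Aarsd1 (−1.27 ± 0.35) and Dtd1 (−0.91 ± 0.24) in Hdac1 mutant embryos and Prorsd1 (−1.64 ± 0.29) after FK228, among others. Dtd2, a tRNA deacylase, was higher in each, at 1.86 and 2.85 FPKM in Hdac1 mutant against 0 and 0.261 FPKM in Hdac1 WT late embryos.

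Enzymes that process and modify tRNA were called lower more often than higher in all 3 comparisons. Of 42 tested, 26 were lower and 3 higher in Hdac1 mutant, 25 and 3 in Hdac2 mutant and 31 and 0 in FK228-treated embryos, and 29 were higher and 5 lower at the late than at the early stage in Hdac1 WT embryos. Of all tested genes, 21.6%, 22.2% and 26.3% were lower in the 3 perturbations and 28.8% higher at the late stage. Pop1, a subunit of RNase P, which trims the 5′ end of tRNA, was at 0.573 and 3.57 FPKM in Hdac1 mutant and 21.6 and 19.7 FPKM in Hdac1 WT embryos (−3.01 ± 0.39, adjusted p = 9.24e-06, limma). Trmt61a, a tRNA methyltransferase subunit, was at 2.53 and 2.13 FPKM with FK228 and 26.6 and 28.4 FPKM with DMSO (−3.10 ± 0.25, adjusted p = 4.36e-08, limma). Tsen34, a subunit of the tRNA splicing endonuclease, was higher, at 91.9 and 100 FPKM in Hdac2 mutant against 16.9 and 19.1 FPKM in Hdac2 WT embryos (2.35 ± 0.35). A list of 11 genes of translation elongation held elongation factors and Eef2k, the kinase of Eef2. Of these, 6, 6 and 7 were lower in the Hdac1, Hdac2 and FK228 comparisons, and 1, 2 and 1 were higher. Among the higher ones was Tsfm, a mitochondrial factor, after FK228 (1.23 ± 0.38, adjusted p = 0.0119, limma). Eef2, which moves the ribosome along, was at 74.9 and 71.3 FPKM in Hdac1 mutant and 240 and 229 FPKM in Hdac1 WT embryos.

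Atf4, a factor known to raise several cytosolic synthetase genes when amino acids are short, was at 52.5 and 65.1 FPKM in Hdac1 mutant and 103 and 117 FPKM in Hdac1 WT late embryos (−0.89 ± 0.15, adjusted p = 0.00013, limma). Of 24 tested genes of its pathway, 13 were higher and 5 lower in Hdac1 mutant, 9 and 6 in Hdac2 mutant and 10 and 7 in FK228-treated embryos. Of all tested genes, 30.5%, 30.8% and 31.0% were higher and 21.6%, 22.2% and 26.3% lower in these comparisons. The list thus held calls in both directions each time. Atf3, a stress-induced transcription factor, was at 45.1 and 36.8 FPKM in Hdac1 mutant and 0.107 and 0.640 FPKM in Hdac1 WT embryos (4.95 ± 0.29, adjusted p = 5.56e-09, limma), and Chac1, which degrades glutathione, and Ddit3 were also higher in all 3 comparisons. Slc1a5, a glutamine transporter, and Psat1, of serine synthesis, were lower in all 3. Exons of Ddit3 and Mars1 overlap by 68 bases on opposite strands, and the labels state no strand step. Of the 5 members with the C/EBP-ATF letters, Aars, Gars and Iars were lower and Yars higher in Hdac1 mutant embryos, and Tars was not called. Mycn was at 42.6 and 30.7 FPKM in Hdac1 mutant and 0.837 and 2.07 FPKM in Hdac1 WT embryos (3.97 ± 0.23).

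Neighbouring genes were read where a start lay within 1000 bases on the opposite strand, which gave 9 member and neighbour pairs, Hars and Hars2 counted from each side. Of the 4, 4 and 5 of these members lower in the Hdac1, Hdac2 and FK228 comparisons, the neighbour was lower too in 3, 3 and 4. After FK228 that count holds Hars and Hars2 from both sides. No share over all such neighbour pairs of the genome was taken. Of all tested genes, 21.6%, 22.2% and 26.3% were lower in these comparisons. Mrps12, beside Sars2, was not called in any, at 0.01 and −0.35 in the Hdac2 and FK228 comparisons where Sars2 was at −1.78 and −1.96, and S100pbp, beside Yars, was called lower after FK228, where Yars was not called. Terf2ip, which starts 75 bases from Kars, was lower in the Hdac1, Hdac2 and FK228 comparisons at −1.05 ± 0.22, −1.27 ± 0.22 and −1.57 ± 0.22, Kars being at −1.29, −1.40 and −2.28. Ubfd1, 88 bases from Ears2 with 89 exonic bases shared on opposite strands, was lower, at −1.58, −1.75 and −1.85, so reads of these genes may be mixed. Orc3, 13 bases from Rars2, was higher in Hdac1 mutant embryos (0.85 ± 0.26) where Rars2 was lower, a call that Rars2 lost without mutant replicate 1 (adjusted p = 0.227). Hars and Hars2, on opposite strands, share 195 exonic bases. Also on opposite strands, Farsb shares 248 exonic bases with Sgpp2 (9.47% of its own) and Fars2 shares 501 with Nrn1 (8.72%). Iars2 shares 2034 with Rab3gap2 (22.9%). Reads of these genes may be mixed too.

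In bovine 8/16-cell embryos, FK228 also lowered more synthetase mRNAs than it raised, with a partly different set of calls. Against DMSO, 18 of 37 members were lower and 4 higher, with 27.4% and 22.2% of all 12590 tested genes, and the members' median was −0.46 where that of all tested genes was 0.06. Lower were 9 of 12 cytosolic enzymes outside the complex, 3 of 8 in it and 6 of 17 mitochondrial enzymes. YARS was at 7.72 and 6.12 FPKM with FK228 and 42.2 and 36.1 FPKM with DMSO (−2.35 ± 0.20, adjusted p = 7.26e-05, limma), and SARS at 18.0 and 15.6 FPKM with FK228 and 78.9 and 69.2 FPKM with DMSO (−2.07 ± 0.17, adjusted p = 7.27e-05, limma). TARS2, the mitochondrial threonyl enzyme, was at 5.20 and 3.57 against 19.3 and 20.2 FPKM (−1.96 ± 0.22), TARS at 3.70 and 4.56 against 15.0 and 16.2 FPKM (−1.70 ± 0.20) and QARS at 20.1 and 16.9 against 44.5 and 49.8 FPKM (−1.31 ± 0.18).

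The bovine higher calls were PARS2, the mitochondrial prolyl enzyme, at 18.0 and 19.5 FPKM with FK228 and 4.94 and 5.11 FPKM with DMSO (1.71 ± 0.19, adjusted p = 0.000223, limma), CARS2 at 0.97 ± 0.21, NARS2 at 0.80 ± 0.20 and GARS at 0.64 ± 0.23. EPRS was at 5.90 and 6.06 FPKM with FK228 and 5.67 and 5.56 FPKM with DMSO (0.08, not called), and RARS at 25.8 and 23.3 against 26.4 and 25.0 FPKM, also not called. Among the scaffold genes AIMP1 was at 1.34 and 0.934 FPKM with FK228 and 25.2 and 23.0 FPKM with DMSO (−3.56 ± 0.21, adjusted p = 2.72e-05, limma), while AIMP2 was not called and EEF1E1 was higher by 0.65 ± 0.16. Among related genes outside the list of members, TARSL2 was at 23.6 and 28.2 FPKM with FK228 and 5.19 and 5.15 FPKM with DMSO (2.12 ± 0.19). MTFMT was also called higher, PRORSD1 was called lower, and AARSD1, SEPSECS and DTD1 were not called. Of the 22 calls, 13 were made with any library left out, and GARS and NARS2 were not among these (adjusted p = 0.267 and 0.0649 without DMSO replicate 1).

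Set side by side, 9 genes were lower after FK228 in both species, Farsa, Hars, Kars, Mars1, Tars, Hars2, Sars2, Tars2 and Yars2. Of these, Farsa, Kars, Sars2 and Tars2 were called in both species with any library left out. Mouse Tars and Hars2 and bovine HARS, MARS and YARS2 lost their calls without at least 1 library. Gars and Cars2 were lower in mouse and higher in cattle, and Sars was higher in mouse and lower in cattle. In each of these reversals 1 call was lost without at least 1 library, that of mouse Cars2, mouse Sars or bovine GARS. Called lower in mouse alone were 6, Aars, Dars, Eprs, Rars, Ears2 and Wars2, and in cattle alone 8 lower and 2 higher. QARS is among these 8, and as the mouse values of Qars are unreliable, its missing mouse call is no result. The shared 9 are 52.9% of the members lower in mouse and 50.0% of those lower in cattle. Of 9850 genes tested in both species under the same symbol, those lower in both were 45.2% of the genes lower in mouse and 54.6% of those lower in cattle. The bovine HARS call was lost without any of the 4 libraries (adjusted p = 0.118 to 0.168), and that of MARS without FK228 replicate 1 or either DMSO library (0.0693 to 0.101). Stage, hours and culture medium differ between the species and the values were fitted separately, so no test was made between them.

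**Figure D5:**
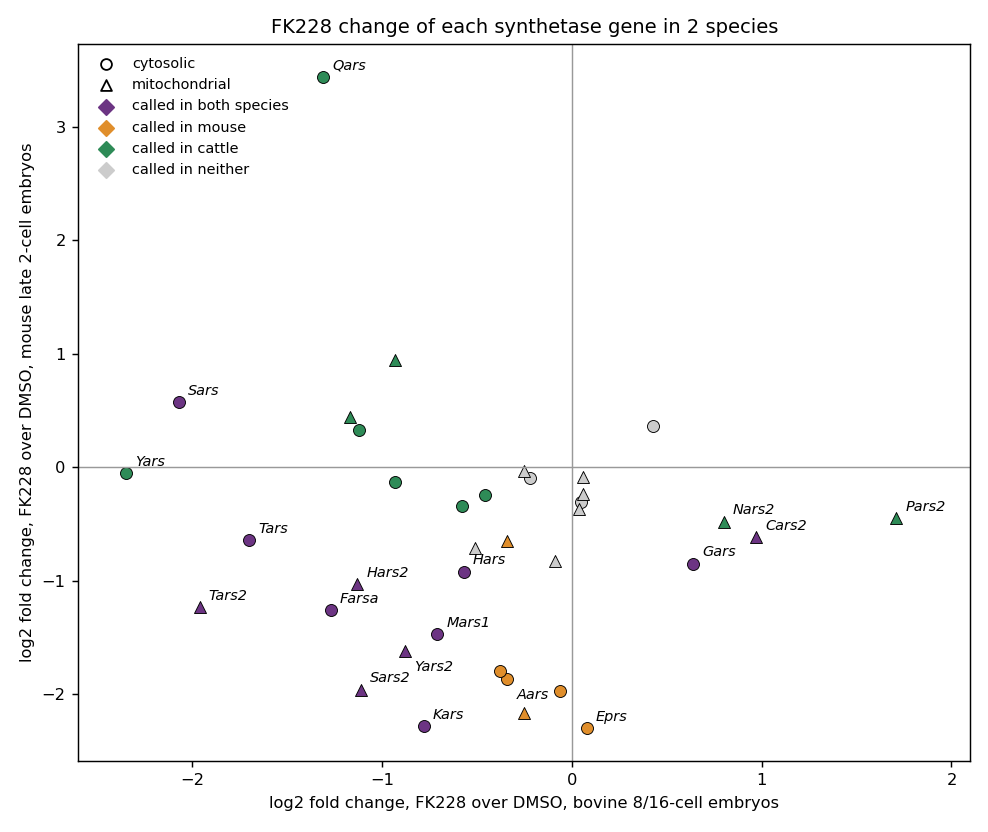
Log2 fold change of FPKM + 1, FK228 over DMSO, for each synthetase gene in bovine 8/16-cell embryos (x axis) and mouse late 2-cell embryos (y axis), by compartment (marker) and call (colour), named by the mouse symbol. Kars, Tars2 and Sars2 are lower in both, Eprs lies at 0.08 in cattle and −2.30 in mouse, Sars is lower in cattle and higher in mouse, and the mouse value of Qars is unreliable.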

How the data were processed

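RNA-seq of early embryos was analysed from 26 libraries in 13 groups of 2. Per the labels' protocols, RNA was purified with the Picopure kit, poly(A) RNA was isolated with oligo(dT) beads, and the NEBNext Ultra kit gave the libraries. The authors deposited FPKM values per gene and library. The submitters' processing notes list the builds GRCm38 and ARS-UCD1.2 and, without versions, the tools Cufflinks, DESeq2, HISAT2, Trimmomatic and featureCounts, and which step gave the FPKM values is not given in the sources used here. Absolute depth is unknown. Steps between low values gave relative depths of 0.663 to 1.31 in mouse and 0.912 to 1.07 in bovine libraries.

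FPKM were turned into log2(FPKM + 1). Genes with at least 1 FPKM in at least 2 libraries were tested with limma 3.58.1 (R 4.3.3, trended variance) in 1 fit per species over all groups, with 11 residual degrees of freedom in mouse and 2 in bovine. The 11 comparisons and 3 differences between comparisons were adjusted by Benjamini-Hochberg over all tested genes. The fit was tested on simulated data. Alternatives were a pseudocount of 0.1, other scalings, a minimum of 5 FPKM or none, a replicate block, fits of the compared groups alone and leaving out each library. Up to 5 members called in each direction were named with values, by size of fold change, and up to 3 of each other list. The rule was exceeded for members followed across comparisons. One mitochondrial member is included in the counts and sums but is not reported by name here. Members and lists were chosen with earlier results of these data known. Promoter sequences are from RefSeq (GRCm38.p6) and gene positions from GENCODE M21. Tables and figures were made with pandas 2.3.3 and matplotlib 3.10.9 in Python 3.11.15.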

Additional observations from a re-analysis of the deposited data

Results flagged for a closer look

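The effect of mutant Hdac1 mRNA against WT Hdac1 mRNA differed between the late and the early 2-cell stage for 10 members, by the limma test of the difference itself (late effect minus early effect, log2 scale, 2 libraries per group). The difference was −1.94 ± 0.29 for Eprs (adjusted p = 0.000117), −1.84 ± 0.32 for Dars (adjusted p = 0.000393), −1.48 ± 0.22 for Rars (adjusted p = 0.000106) and −1.28 ± 0.22 for Kars (adjusted p = 0.000391), all of the multi-synthetase complex. It was −1.18 ± 0.26 for Farsa (adjusted p = 0.00238), and 1.40 ± 0.32 for Sars (adjusted p = 0.00275), the one positive difference. Among mitochondrial enzymes it was −1.47 ± 0.50 for Yars2 (adjusted p = 0.0307), −1.34 ± 0.32 for Ears2 (adjusted p = 0.00383), −0.86 ± 0.31 for Tars2 (adjusted p = 0.0435) and −0.83 ± 0.27 for Cars2 (adjusted p = 0.027). The calls of Yars2, Tars2 and Cars2 were lost without at least 1 library.

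The Hdac1 mutant effect and the FK228 effect differed for Mars1, by 1.14 ± 0.30 (adjusted p = 0.0337), and for Kars, by 0.99 ± 0.22 (adjusted p = 0.0179), both less negative in the mutant comparison. Both calls were lost without at least 1 library.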

How the results depend on the processing

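Of 153 called values, 141 stayed called with a pseudocount of 0.1, 145 after median-ratio scaling, 136 after quantile normalization and 135 without a filter on low values, as did all 132 that could be tested at a minimum of 5 FPKM. With only the compared groups fitted, 100 of 114 stayed called. Over all refits without 1 library, 518 of 660 stayed called. After quantile normalization Tars2 changed sign between late and early Hdac1 mutant embryos, to −0.14, and the cause was not tested.

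Counts of called members were within 1.5 times of those reported except as follows. In Hdac1 WT against water embryos the count was 0 with only the groups compared. In Hdac2 WT against water embryos it was 2 after median-ratio scaling and 1 after quantile normalization. For Kdm5b against water as second injection it was 0 with a pseudocount of 0.1, after quantile normalization and with only the groups compared. For the Hdac1 mutant effect minus the FK228 effect it was 1 with a pseudocount of 0.1, after median-ratio scaling and after quantile normalization. The cause was not tested. Without 1 library each, the counts ran from 14 to 17 for Hdac1 mutant against WT late, 14 to 16 for Hdac2 mutant against WT, 14 to 16 for mouse FK228, 0 to 0 for Hdac1 mutant against WT early, 21 to 27 for late against early Hdac1 WT and 16 to 19 for late against early Hdac1 mutant embryos. They ran from 1 to 2 for Hdac1 WT against water, 0 to 1 for Hdac2 WT against water, 0 to 1 for Kdm5b, 10 to 14 for doubly injected mutant embryos against water and 15 to 18 for bovine FK228. For the differences they ran from 8 to 11 (late minus early), 0 to 0 (Hdac1 minus Hdac2) and 0 to 2 (Hdac1 minus FK228).

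The replicate numbers were not shown to pair the libraries, with correlations of deviations from −0.06 to 0.23 over 2 pairs each. With the replicate block the count for late against early Hdac1 mutant embryos was 21, the other counts did not change, and 151 of 153 called values stayed called. With 2 libraries per group and unknown absolute depth, small differences in members near 1 FPKM, many of them mitochondrial, could not be resolved.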
